A study of Mus musculus with 12 samples.

Results

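Loss or reduction of Tet1 was examined in colonic adenomas of mice that all carry ApcMin/+, a truncating allele of the tumour suppressor gene Apc on which intestinal adenomas form. The Tet1-mutant side held 6 of the 12 RNA sequencing libraries and the Tet1 wild-type side the other 6. On the mutant side, 3 libraries came from Tet1-/- Tdg+/+ ApcMin/+ adenomas (Tet1-null) and 3 from Tet1+/- TdgN151A/+ ApcMin/+ adenomas (double-heterozygous). On the wild-type side, 3 came from Tet1+/+ TdgN151A/+ ApcMin/+ adenomas (Tdg-heterozygous) and 3 from Tet1+/+ Tdg+/+ ApcMin/+ adenomas (control). The labelled strain was C57BL/6J throughout and the adenomas were taken at 150 to 160 days. Of the 25705 genes listed, 15150 had a value of at least 1 FPKM (fragments per kilobase of transcript, scaled to the mapped fragments of a library) in at least 3 libraries and were tested, 13004 of them protein-coding. The mutant side mixes both mutant copies of Tet1 with 1 mutant copy, and the Tet1 genotype differs within each of the Tdg backgrounds: Tet1-null against control in Tdg wild-type adenomas, and double-heterozygous against Tdg-heterozygous in TdgN151A/+ adenomas. These comparisons share no library. They differ in the number of mutant Tet1 copies as well as in Tdg, so copy number and Tdg background cannot be told apart where their results differ.

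TET enzymes oxidise the methyl group of 5-methylcytosine in DNA, and Tet1 encodes one of 3 such enzymes in the mouse, beside Tet2 and Tet3. The glycosylase encoded by Tdg cuts out the most oxidised forms, and base excision repair then restores an unmethylated cytosine. DNA methyltransferases work the other way: Dnmt1, guided by Uhrf1, copies the mark at replication, and Dnmt3a and Dnmt3b place it anew. In the intestine, loss of Apc releases β-catenin and turns on Wnt target genes, and in human colon tumours many CpG-rich promoters gain methylation.

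The sum of FPKM per library lay between 663551 and 977282, and 13692 to 14384 genes reached 1 FPKM in a library. Read counts are not given, so depth in reads is unknown. Nothing in the labels ties the samples to separate animals, so p-values measure the spread between these samples. Within a group, libraries carry the numbers 0, 1 and 2 that their columns have. The libraries carried RNA of colonic epithelium: the epithelial gene Epcam lay between 753 and 1300 FPKM in the mutant libraries and between 870 and 1860 FPKM in the wild-type libraries. Hoxb13, a homeobox gene of the distal colon, lay between 25.1 and 160 FPKM in mutant and between 96.9 and 120 FPKM in wild-type libraries, with the lowest value in Tet1-null library 2. Apoa1, an apolipoprotein gene of the small intestine, reached at most 0.108 FPKM in mutant and 0.26 FPKM in wild-type libraries. Sexes were unevenly divided. Xist, the RNA of the inactive X chromosome in females, exceeded 10 FPKM in 1 of 6 mutant libraries and in 4 of 6 wild-type libraries. Medians of gene lists were therefore also taken from a fit with a term for Xist. Tet1-null library 1 and Tdg-heterozygous library 2 stood apart by low Wnt target genes, as described with those genes.

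Tet1 itself (ENSMUSG00000047146, mm10 chromosome 10, 62804570 to 62908996, minus strand) stayed under 1 FPKM in all 12 libraries and was therefore not among the genes tested. Its FPKM was 0.621, 0.199 and 0.163 in the Tet1-null and 0.127, 0.486 and 0.335 in the double-heterozygous libraries, against 0.356, 0.492 and 0.223 in the Tdg-heterozygous and 0.403, 0.478 and 0.422 in the control libraries. The 2 sides overlapped, and the highest of all 12 values belonged to a Tet1-null library. The mean was 0.322 ± 0.198 FPKM on the mutant side and 0.395 ± 0.0981 FPKM on the wild-type side (SD, n = 6 each), a difference of -0.0736 FPKM that did not pass a two-sided exact permutation test over all 924 regroupings (p = 0.416, with 0.00216 the smallest p possible). Which part of Tet1 the mutant allele lacks is not given in the labels, so a value summed over the whole gene does not verify the genotypes.

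**Figure D1:**
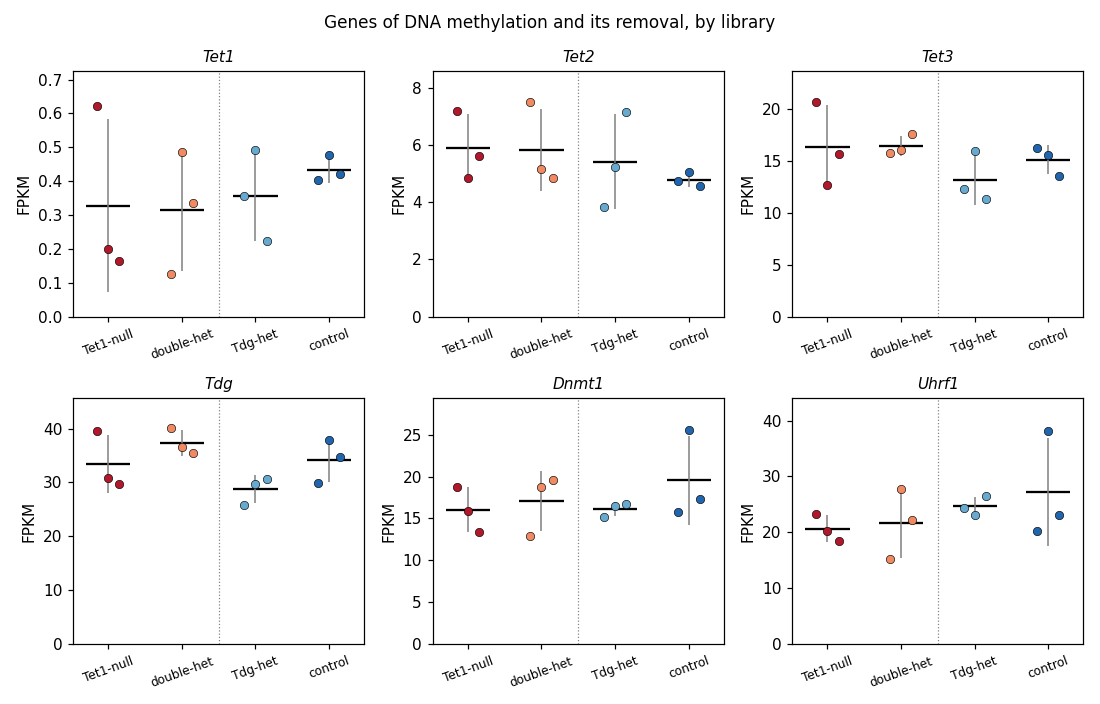
FPKM (vertical axes, linear, from 0) of 6 genes of DNA methylation and its removal in each library, with the Tet1-mutant groups left of the dotted line and the Tet1 wild-type groups right of it. Points are libraries, horizontal bars group means and vertical bars SD (n = 3). Tet1 ranges from 0.127 to 0.621 FPKM in mutant and from 0.223 to 0.492 FPKM in wild-type libraries, and the 2 sides overlap in all 6 genes.

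Across the 15150 genes, the Tet1-mutant and Tet1 wild-type adenomas differed in 1 gene model at an adjusted p under 0.05 (limma on log2(FPKM + 1), Benjamini-Hochberg), which is 0.0066% of the genes tested. The called gene was the small RNA model Gm25390, and 0 protein-coding genes passed. At an unadjusted p under 0.05 there were 235 genes, 1.55% of those tested, with 196 higher and 39 lower in the mutant adenomas. The difference of the median gene was 0.0379 on the log2 scale and 59.8% of genes were higher in the mutant adenomas, a split that depended on how the libraries were scaled: 46.6% were higher after median-ratio scaling and 62.7% after scaling to the same total. The median standard error of a gene was 0.185. A log2 difference beyond 1 in size was seen in 202 genes, 109 higher and 93 lower, of which Gm25390 alone passed. In simulated data each gene kept its own residual spread, with noise drawn independently for each gene and library. Altered genes had a mean log2(FPKM + 1) above 1 and were shifted alike in both mutant groups. Of these, 29 of 50 altered 2-fold and 43 of 50 altered 4-fold were called. The folds are of FPKM + 1, so the change in FPKM itself was larger, most of all in low genes. Libraries that stood apart over many genes were not simulated, so these shares may not hold here.

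Gm25390 (ENSMUSG00000087966) passed on the Tet1-mutant side, with values above 0 in the 3 Tet1-null libraries and in no other. It met the filter of 1 FPKM in 3 libraries through those 3 libraries alone, so a gene admitted in this way had to differ, and it was not above 0 in double-heterozygous adenomas. It is annotated as a small nuclear RNA of 103 nt at chr10:91005741-91005843 (mm10/GRCm38, plus strand), on the chromosome that carries Tet1. Its transcript in GENCODE M21 is shown because it is the single gene that passed.
Gm25390: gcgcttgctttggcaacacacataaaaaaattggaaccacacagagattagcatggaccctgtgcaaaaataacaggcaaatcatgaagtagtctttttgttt
Its FPKM was 45.7, 21.3 and 20.6 in Tet1-null adenomas and listed at 0 in the 3 double-heterozygous libraries, against 0 in all 6 wild-type libraries. The log2 difference was 2.41 ± 0.19 (SE; limma, adjusted p = 0.00237). Within the Tdg wild-type adenomas the difference was 4.82 and in the TdgN151A/+ adenomas 0, and the difference between the backgrounds was itself past the threshold (4.82, adjusted p = 0.00237). With a pseudocount of 5 the adjusted p was 0.0607, and it was also not called with a filter on a mean of at least 5 FPKM, in a fit of the 2 sides alone, with an additive Tdg term or with a trend over mutant Tet1 alleles. By blastn, 374 other annotated genes matched its transcript, none of them at 95% identity or more over at least 75 nt. The transcript is little longer than the 75 nt reads, and the files do not tell how reads with several matches were assigned, so its level is uncertain. A second short model, Gm22692, rose in Tet1-null against control adenomas (3.53, limma, adjusted p = 0.0209) but did not pass between the sides (1.88, adjusted p = 0.252). It had 7.42 to 20.8 FPKM in Tet1-null and 7.14 to 13.5 FPKM in double-heterozygous libraries, against 5.78 to 9.65 FPKM in Tdg-heterozygous libraries and 0 in controls, and 422 other genes match it at 95% identity or more over at least 75 nt.

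Of the genes that separated the sides library by library, 14 had all 6 mutant libraries above all 6 wild-type libraries (0.0924% of genes tested) and 0 had them all below. Over the 924 regroupings of 6 against 6, a gene is wholly apart in either direction with a probability of 0.00216. The share found was smaller than that, so the number of these genes is no more than random splits would give. None of the 14 passed the adjusted test (limma, adjusted p = 1 for each). Of these, 11 carry a proper gene name, and for most the difference was small. Igkv3-2, a variable segment of the immunoglobulin kappa light chain, had 17.3, 26.1 and 21.3 FPKM in Tet1-null and 175, 41.6 and 15.3 FPKM in double-heterozygous libraries, against 4.14, 10.8 and 1.28 FPKM in Tdg-heterozygous and 0.318, 6.3 and 1.24 FPKM in control libraries. Its log2 difference was 3.13 ± 0.64 (SE), with 3.00 in Tdg wild-type and 3.26 in TdgN151A/+ adenomas. The lowest mutant library was above the highest wild-type library, and double-heterozygous library 0 was far above the rest. Reads of such segments can be shared with related segments.

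Slc39a14, which encodes the zinc and manganese importer ZIP14, had 14.7, 18.2 and 15.1 FPKM in Tet1-null and 28.1, 14.8 and 15.4 FPKM in double-heterozygous libraries, against 9.96, 14.6 and 13.7 FPKM in Tdg-heterozygous and 10.1, 10.4 and 11.9 FPKM in control libraries (log2 difference 0.52 ± 0.17). The lowest mutant value, 14.7, lay just above the highest wild-type value, 14.6. Lrp6, a co-receptor for Wnt ligands, lay within a narrow band of 15.4 to 16.1 FPKM in the mutant libraries, against 12.1 to 14.9 FPKM in the wild-type libraries (log2 difference 0.20 ± 0.08). Man2b1, the lysosomal alpha-mannosidase, lay between 28.5 and 34 FPKM in mutant and between 24.9 and 28.3 FPKM in wild-type libraries (0.22 ± 0.08). Ndst2, which modifies heparan sulphate, had 8.76 to 9.79 FPKM in mutant and 6.85 to 8.56 FPKM in wild-type libraries (0.26 ± 0.08). Irs1, an adaptor of the insulin receptor, had 1.28 to 1.5 FPKM in mutant and 0.529 to 1.25 FPKM in wild-type libraries (0.28 ± 0.12).

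Npff, a neuropeptide precursor, had 2.35 to 3.35 FPKM in mutant and 1.56 to 2.24 FPKM in wild-type libraries. Mkrn2, a ring finger protein, had 8.46 to 9.98 FPKM in mutant and 6.22 to 8.17 FPKM in wild-type libraries. Tmem104, a transmembrane protein, differed by 0.26 on the log2 scale. Ppm1l, a protein phosphatase, had 3.78 to 4.77 FPKM in mutant and 3.02 to 3.75 FPKM in wild-type libraries, and Dnajc16 differed by 0.20 on the log2 scale. The models Gm10135, Gm15800 and 4933426M11Rik were the remaining 3, with log2 differences of 0.30, 0.26 and 0.24; all 3, like Dnajc16, were added because of these values. The set depended on scaling. After scaling to the same total 5 genes were wholly higher and 0 wholly lower, after median-ratio scaling 3 and 4, and after quantile normalization 5 and 1, and 2, 3 and 2 of the 14 were among them. Igkv3-2 was the one gene that did not overlap under any of the 3.

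**Figure D2:**
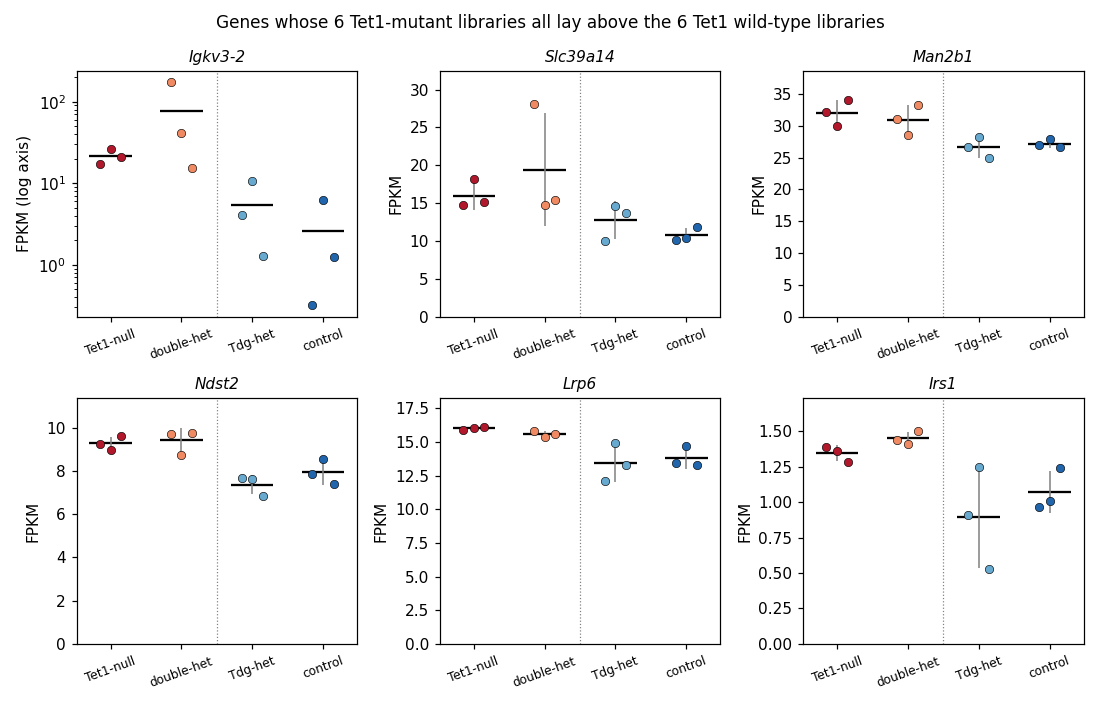
FPKM in each library of 6 of the 11 named genes whose mutant libraries lay above all wild-type libraries. The vertical axis is linear from 0, except for Igkv3-2, where it is logarithmic; points are libraries and bars means, with SD (n = 3) on the linear axes. Lrp6 spans 15.4 to 16.1 FPKM in the 6 mutant libraries, against 12.1 to 14.9 FPKM in the 6 wild-type libraries.

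Because oxidation by TET enzymes acts on CpG dinucleotides, the density of CpG in the promoters was set beside these differences. A CpG-rich and a CpG-poor promoter among the 14 genes are shown as RefSeq windows of GRCm38.p6, from 250 bases before to 50 after the start of the gene, with each CG in capitals. The window of Irs1, chr1:82291390-82291689 on the minus strand, holds 28, and that of Man2b1, chr8:85083019-85083318 on the plus strand, holds 8.
Irs1: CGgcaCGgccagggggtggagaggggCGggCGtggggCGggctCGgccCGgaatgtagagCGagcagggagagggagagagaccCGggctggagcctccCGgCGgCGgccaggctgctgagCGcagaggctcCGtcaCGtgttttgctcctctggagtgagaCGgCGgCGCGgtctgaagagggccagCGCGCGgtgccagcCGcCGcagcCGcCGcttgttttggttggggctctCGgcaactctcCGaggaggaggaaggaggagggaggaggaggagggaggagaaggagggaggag
Man2b1: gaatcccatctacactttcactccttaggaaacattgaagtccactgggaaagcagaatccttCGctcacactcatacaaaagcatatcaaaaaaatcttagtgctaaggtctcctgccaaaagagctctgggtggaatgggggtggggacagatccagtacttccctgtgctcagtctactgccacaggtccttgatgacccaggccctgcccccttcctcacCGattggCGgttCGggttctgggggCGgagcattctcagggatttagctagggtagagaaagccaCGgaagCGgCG
At least 1 CG (a motif that reads the same on both strands) was found in 99.2% of the 10127 windows that could be matched to genes tested. The genes tested were divided by the number of CG in this window. The median log2 difference between mutant and wild-type adenomas was 0.0435 for the 998 genes with 0 to 4, 0.0404 for the 2306 with 5 to 14, 0.0288 for the 3225 with 15 to 24 and 0.0407 for the 3598 with 25 to 64. These classes differed by less than 0.02, and across genes Spearman's rho between CG number and difference was 0.00898. In Tdg wild-type adenomas the median was 0.115 in the class with the fewest CG and 0.0224 in that with the most (rho = -0.0647). In TdgN151A/+ adenomas it was 0.00103 and 0.0647 in the same classes (rho = 0.0763).

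Among properly named genes, the 20 with the smallest unadjusted p were 17 higher and 3 lower in mutant adenomas, and none passed (limma, adjusted p = 1 for each). Besides Igkv3-2, Slc39a14 and Ndst2 they included 3 immunoglobulin heavy chain segments. Ighv9-1 reached at most 0.516 FPKM in Tet1-null and 3.19 to 10.6 FPKM in double-heterozygous libraries, against at most 1.84 FPKM in Tdg-heterozygous and 0 in control libraries. The double-heterozygous libraries sufficed to take Ighv9-1 past the filter, so the filter favoured a difference. Ighv1-76 had 6.18 to 14 FPKM in Tet1-null libraries and Ighv1-15 differed by 1.66 on the log2 scale. Coro7, a coronin of Golgi traffic, had 8.92 to 15.9 FPKM in mutant and 7.3 to 10.1 FPKM in wild-type libraries (0.52 ± 0.13). Trim14, an adaptor of antiviral signalling, had 9.8 to 16.4 FPKM in mutant and 7.88 to 11.2 FPKM in wild-type libraries (0.51 ± 0.15). For Coro7 and Trim14 the lowest mutant libraries lay below the highest wild-type library.

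Regulators in this group were Sik3, a salt-inducible kinase (0.48 ± 0.15), Nr1d2, a nuclear receptor of the circadian clock (0.36 ± 0.11), Kat6b, a histone acetyltransferase (0.50 ± 0.17), and the zinc finger gene Zfp945 (0.40 ± 0.13). Nr1d2 had 21.2 to 29.8 FPKM in mutant and 17.1 to 23.5 FPKM in wild-type libraries. Lipid enzymes went in both directions: Lpl, lipoprotein lipase, had 2.43 to 4.84 FPKM in mutant and 1.28 to 4.14 FPKM in wild-type libraries (0.54 ± 0.18), and Alox12, a lipoxygenase, had 17.2 to 58.2 FPKM in mutant and 54.8 to 73 FPKM in wild-type libraries (-0.73 ± 0.25). Gimap1, a GTPase of lymphocytes, Tor3a, an ATPase of the endoplasmic reticulum, and the oviduct glycoprotein gene Ovgp1 differed by 0.47, 0.34 and 0.47. The 3 remaining names are short RNA models. Snord91a had up to 45.4 FPKM in mutant libraries and was listed at 0 in 5 of 6 wild-type libraries. HOXB13-AS1_2 was listed at 0 in 4 of 6 mutant libraries and had 60.4 to 333 FPKM in wild-type libraries. To pass the filter, Snord91a needed mutant libraries, and for HOXB13-AS1_2 the wild-type libraries sufficed. The filter therefore favoured a difference in both. Snora68 had a log2 difference of -0.94 ± 0.28. These models are 80 to 131 nt long, near the read length, and the library kit is not described as keeping strand.

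Genes that place, remove or read DNA methylation did not pass. The mutant and wild-type sides overlapped for each of Tet2, Tet3, Tdg, Mbd4, Dnmt1, Dnmt3a, Dnmt3b and Uhrf1, with log2 differences between -0.28 (Uhrf1) and 0.20 (Tet3) and an adjusted p of 1 in limma. Tet3 had 12.7 to 20.7 FPKM in mutant and 11.4 to 16.3 FPKM in wild-type libraries. Tdg had 29.8 to 40.1 FPKM in mutant and 25.8 to 37.9 FPKM in wild-type libraries. Apc, the gene with the Min allele in all libraries, had 11.5 to 19.4 FPKM in mutant and 10.3 to 17.9 FPKM in wild-type libraries (0.12 ± 0.16). Of 21 tested genes of methylcytosine oxidation and base excision, 6 were higher and 15 lower in mutant adenomas, with 0 called and a median of -0.07, beside 0.0379 over all genes. The largest of the lower ones was the repair polymerase Polb, with 16.3 to 34 FPKM in mutant and 26.6 to 35.8 FPKM in wild-type libraries (-0.31 ± 0.21). Of 23 tested writers and readers of methylation, 8 were higher and 15 lower (median -0.03, 0 called). Among them were the Polycomb subunit genes Suz12 (-0.26 ± 0.12) and Eed (-0.15 ± 0.09), and Dnmt3l, a cofactor of the de novo enzymes (0.57 ± 0.28). Both medians turned positive when Tet1-null library 1 was left out, to 0.0307 and 0.0227, and the first also without double-heterozygous library 0 (0.0212).

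Genes commonly read as targets of DNA methylation were divided in direction. Of 25 tested imprinted genes, 10 were higher and 15 lower in mutant adenomas (median -0.05, 0 called), and the median was 0.0515 without Tdg-heterozygous library 1, 0.0226 without control library 0 and 0.0173 without Tet1-null library 1. Commd1 had 66 to 113 FPKM in mutant and 90.9 to 128 FPKM in wild-type libraries (-0.24 ± 0.14). Of 40 tested genes that gain promoter methylation in human colon cancer, 23 were higher and 17 lower (median 0.00981, 0 called), a median so near 0 that it was below 0 in 8 of the 12 fits that left out a library, down to -0.034 without double-heterozygous library 0. Socs1, an inhibitor of cytokine signalling, had 2.96 to 7.35 FPKM in mutant and 4.29 to 7.62 FPKM in wild-type libraries (-0.32 ± 0.17), and Ndrg4 differed by 0.48 ± 0.27. Of 30 germline genes held silent by methylation in somatic cells, 21 were listed under 1 gene ID, and 3 of those reached the filter. These were Zcwpw1 (-0.23 ± 0.23), the synaptonemal complex gene Sycp3 (0.12 ± 0.27) and the homeobox gene Rhox5 (-0.28 ± 0.63), and none was called.

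Wnt target genes were lower in the mutant adenomas on average, and the difference lay in single libraries. Of 27 tested growth targets of the pathway, 3 were higher and 24 lower (median log2 difference -0.26, 0 called), and of 14 tested feedback inhibitors 3 were higher and 11 lower (-0.22, 0 called). Wif1, a secreted Wnt antagonist, had 458, 5.06 and 271 FPKM in Tet1-null and 54.4, 465 and 176 FPKM in double-heterozygous libraries, against 348, 488 and 23.7 FPKM in Tdg-heterozygous and 333, 228 and 365 FPKM in control libraries. Sp5, a transcription factor gene induced by Wnt, had 25.9, 0.531 and 14.8 FPKM in Tet1-null and 8.07, 23.4 and 24.3 FPKM in double-heterozygous libraries, against 24, 21.2 and 3.57 FPKM in Tdg-heterozygous and 23.4, 14.8 and 29.1 FPKM in control libraries. Tet1-null library 1 and Tdg-heterozygous library 2 were the lowest of their side for both. Their mean over the growth targets, each centred on its mean of all libraries, was -1.99 and -0.99, against -0.2 in double-heterozygous library 0 and 0.25 to 0.46 in the 9 others. Without Tet1-null library 1 the medians were 0.17 for the growth targets and 0.30 for the inhibitors, so the direction turned. Between Tet1-null and control adenomas 1 of the 27 growth targets was higher and 26 lower, and between double-heterozygous and Tdg-heterozygous adenomas 22 were higher and 5 lower. The oncogene Myc had 21.5 to 53.9 FPKM in mutant and 34.3 to 56.1 FPKM in wild-type libraries (-0.34 ± 0.19), the Eph receptor Ephb3 differed by -0.29 ± 0.18, and the exchange factor Tiam1 by 0.20 ± 0.14.

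Genes of epithelial cell types followed the same libraries. Of 18 tested stem cell genes, 4 were higher and 14 lower (median -0.12, 0 called), and the median was 0.00648 without Tet1-null library 1 and 0.00188 with the term for Xist. Ascl2, a transcription factor of crypt stem cells, had 27.5, 3.28 and 25 FPKM in Tet1-null and 10.7, 35.5 and 33.7 FPKM in double-heterozygous libraries, against 36.5, 26.7 and 7.87 FPKM in Tdg-heterozygous and 29.3, 31.1 and 30.1 FPKM in control libraries. Paneth cell genes, which encode antimicrobial peptides and lysozyme of the small intestine and are seen in some colon tumours, gave the lowest median of the lists (-0.77). Of 17 tested, 4 were higher and 13 lower and 0 were called, and the median lay between -1.19 without Tet1-null library 2 and -0.47 without Tet1-null library 1. In TdgN151A/+ adenomas 16 of the 17 were higher with a Tet1 mutation and 1 lower. Defa23, an alpha-defensin gene, had 2.53, 0 and 13 FPKM in Tet1-null and 15.6, 9.94 and 3.96 FPKM in double-heterozygous libraries, against 14.9, 11.8 and 1.72 FPKM in Tdg-heterozygous and 21.5, 30.6 and 21.9 FPKM in control libraries (-1.28 ± 0.66). All 3 controls were above all 3 Tet1-null libraries, while the double-heterozygous and Tdg-heterozygous libraries overlapped. Alpha-defensin genes are near-identical copies, so reads may have been divided among them.

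Differentiated types showed mixed counts. Of 20 tested goblet cell genes, 5 were higher and 15 lower (median -0.22), and of 21 tested colonocyte genes 14 were higher and 7 lower (0.0428), with 0 called in either. Without Tet1-null library 0 these medians were 0.28 and 0.39. The goblet median was also above 0 without Tdg-heterozygous library 2 (0.0316), and the colonocyte median was below 0 in 8 of 12 fits that left out a library, down to -0.29 without Tet1-null library 1, and at -0.05 with the term for Xist. The trefoil factor gene Tff3 had 51.9, 1920 and 621 FPKM in Tet1-null and 520, 296 and 1940 FPKM in double-heterozygous libraries, against 585, 526 and 1760 FPKM in Tdg-heterozygous and 1970, 474 and 660 FPKM in control libraries, so it varied more within groups than between sides. Enteroendocrine genes were 6 higher and 6 lower of 12, tuft cell genes 6 and 3 of 9, and keratins 6 and 9 of 15, with medians of 0.0187, 0.0227 and -0.0571 that each turned sign in several fits that left out a library. With the term for Xist the enteroendocrine median was -0.09 and that of the keratins 0.0307. Of 16 fetal-like and YAP target genes, 3 were higher and 13 lower (median -0.21, 0 called; 0.0188 with the term for Xist). Among them Spp1, osteopontin, had 5.77 to 104 FPKM in mutant and 34 to 186 FPKM in wild-type libraries (-1.29 ± 0.71). Of 15 epithelial antimicrobial genes, 4 were higher and 11 lower (median -0.24), and the median was 0.16 without Tdg-heterozygous library 2, 0.11 without Tet1-null library 0, 0.0704 without double-heterozygous library 1 and 0.25 with the term for Xist.

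**Figure D3:**
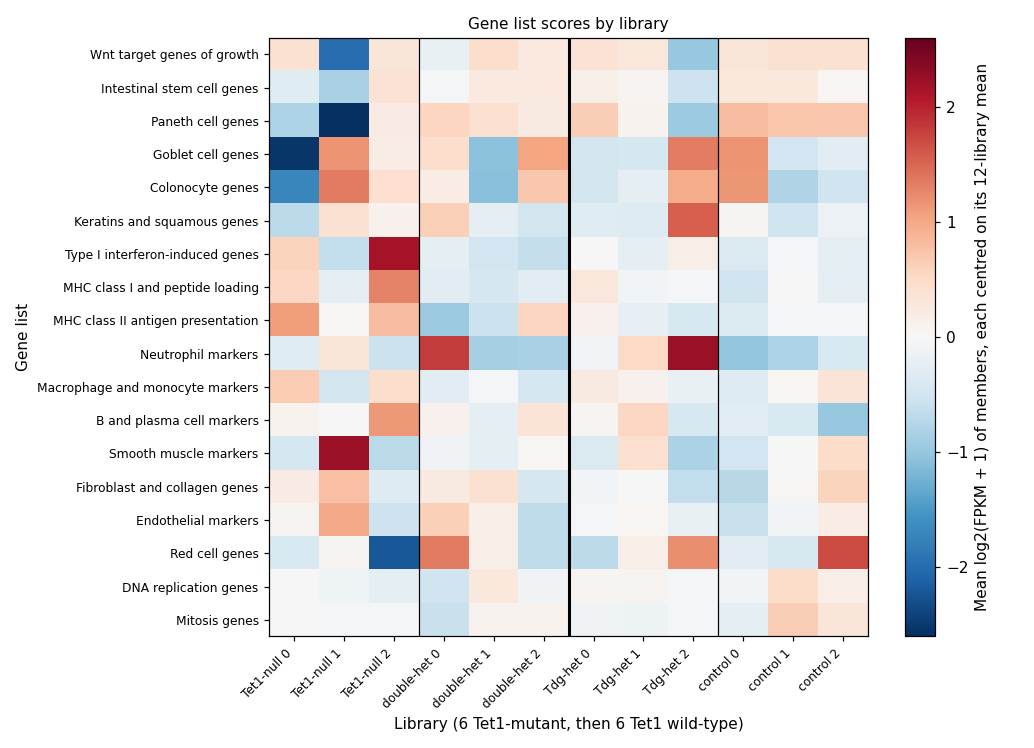
Score of 18 gene lists (rows) in each library (columns, Tet1-mutant libraries left of the thick line), where a score is the mean log2(FPKM + 1) of the tested members, each centred on its mean over the 12 libraries. Red is above and blue below the mean of all libraries. The Wnt target score is -1.99 in Tet1-null library 1 and -0.99 in Tdg-heterozygous library 2, and the type I interferon score is 2.17 in Tet1-null library 2.

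Interferon and antigen presentation genes were higher in the mutant adenomas in count, with 0 called. Of 32 tested genes induced by type I interferon, 29 were higher and 3 lower (median 0.29), and of 23 tested MHC class I and peptide loading genes 22 were higher and 1 lower (0.20). The 9 tested MHC class II genes were all higher (0.34), and 12 of 15 interferon-induced GTPases were higher and 3 lower (0.18). The direction differed by background. Between Tet1-null and control adenomas 31 of 32 interferon genes, 23 of 23 MHC class I genes, 9 of 9 MHC class II genes and 15 of 15 GTPases were higher. Between double-heterozygous and Tdg-heterozygous adenomas 2, 2, 3 and 1 of the same lists were higher, with medians of -0.37, -0.27, -0.20 and -0.39. Stat2, a transcription factor of the interferon response, had 10.5, 6.98 and 24.5 FPKM in Tet1-null and 6.67, 6.19 and 7.2 FPKM in double-heterozygous libraries, against 6.97, 7.76 and 5.99 FPKM in Tdg-heterozygous and 6.36, 8 and 5.78 FPKM in control libraries. Tet1-null library 2 was highest and Tet1-null library 0 next. The type I interferon score was 2.17 in Tet1-null library 2, 0.58 in library 0 and -0.64 in library 1, and between -0.61 and 0.15 in the 9 others. Tet1-null library 2 was also the one mutant library with Xist above 10 FPKM. Without it the medians were -0.08 for type I interferon, 0.000674 for MHC class I and -0.08 for the GTPases, which were also at -0.07 without Tdg-heterozygous library 2. That of MHC class II was 0.0924 without double-heterozygous library 2, 0.17 without Tet1-null library 0 and 0.55 without double-heterozygous library 0. With the term for Xist the medians were 0.70 for type I interferon, 0.53 for MHC class I, 0.40 for MHC class II and 0.47 for the GTPases. H2-DMa, which helps to load class II molecules, had 10.7, 4.09 and 7.8 FPKM in Tet1-null and 3.74, 3.84 and 6.13 FPKM in double-heterozygous libraries, against 5.43, 3.45 and 2.37 FPKM in Tdg-heterozygous and 2.6, 4.66 and 4.52 FPKM in control libraries (0.50 ± 0.25).

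Markers of immune cells moved with single libraries as well. In a whole adenoma, fewer cells of a type and less RNA per cell cannot be told apart. Of 12 tested B and plasma cell markers, 11 were higher and 1 lower in mutant adenomas (median 0.53, 0 called), and the median lay between 0.37 and 0.70 with any 1 library left out and was 0.27 without Tet1-null libraries 1 and 2. Between Tet1-null and control adenomas 11 were higher and 1 lower (0.98), and between double-heterozygous and Tdg-heterozygous adenomas 6 were higher and 6 lower (0.0339). Cd79a, a chain of the B cell receptor complex, had 0.874, 1.1 and 2.2 FPKM in Tet1-null and 1.47, 0.933 and 5.29 FPKM in double-heterozygous libraries, against 0.847, 1.35 and 0.646 FPKM in Tdg-heterozygous and 0.572, 0.77 and 0.379 FPKM in control libraries (0.63 ± 0.28). Tdg-heterozygous library 1 overlapped the mutant libraries, and the other wild-type libraries lay below all of them. On the wild-type side, Cd79a reached 1 FPKM in Tdg-heterozygous library 1 alone. It therefore needed mutant libraries to pass the filter, and the filter favoured a difference. The variable segments of the immunoglobulin genes, grouped after the leading genes had been seen, gave 96 higher and 35 lower of 131 tested (median 0.37, 0 called), with 108 higher and 23 lower in Tdg wild-type adenomas (0.70) and 58 higher and 73 lower in TdgN151A/+ adenomas (-0.10). Their summed FPKM was 883, 507 and 2400 in Tet1-null and 1320, 726 and 562 in double-heterozygous libraries, against 823, 2440 and 243 in Tdg-heterozygous and 522, 488 and 225 in control libraries. The highest sum of all belonged to a Tdg-heterozygous library.

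Of 19 tested neutrophil markers, 4 were higher and 15 lower (median -0.18), of 15 macrophage markers 6 and 9 (-0.05), and of 8 T and NK cell markers 1 and 7 (-0.05), with 0 called. The neutrophil score was 1.82 in double-heterozygous library 0 and at most 0.32 in the other mutant libraries, and 2.24 in Tdg-heterozygous library 2 and at most 0.51 in the other wild-type libraries. The neutrophil median was 0.19 without Tdg-heterozygous library 2, 0.0931 without double-heterozygous library 2 and 0.0408 without double-heterozygous library 1, and the macrophage and T cell medians were 0.20 and 0.15 without Tet1-null library 1. With the term for Xist the macrophage median was 0.088 and the T and NK cell median 0.17. Of 27 cytokine and chemokine genes, 5 were higher and 22 lower (-0.48), and the median was 0.10 without Tdg-heterozygous library 2 and 0.0405 with the term for Xist. Ptgs2, which encodes cyclooxygenase 2, had 3.31 to 49.3 FPKM in mutant and 7.15 to 91.1 FPKM in wild-type libraries (-0.91 ± 0.74), and the highest value of each side lay in the libraries with the high neutrophil score.

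Fibroblast and collagen genes were higher in the mutant adenomas in both Tdg backgrounds in count, with 0 called. Of 18 tested fibroblast and collagen genes, 16 were higher and 2 lower, with a median of 0.35 over both backgrounds, 0.31 in Tdg wild-type and 0.39 in TdgN151A/+ adenomas, and 13 were higher in both backgrounds. In Tdg wild-type adenomas the fibroblast scores were 0.22, 0.79 and -0.33 in Tet1-null and -0.72, 0.03 and 0.58 in control libraries. These groups overlapped, with the highest score in Tet1-null library 1 and the lowest in control library 0. Leave-out medians were taken over both backgrounds only. Col3a1, a fibrillar collagen, had 86.1, 173 and 50.9 FPKM in Tet1-null and 75.2, 85.4 and 56.9 FPKM in double-heterozygous libraries, against 47.7, 59.4 and 39.4 FPKM in Tdg-heterozygous and 38, 60.7 and 89.8 FPKM in control libraries (0.59 ± 0.30). Tdg-heterozygous library 1 and control libraries 1 and 2 overlapped the mutant side. The median of these genes was 0.18 without Tet1-null library 1 and without control library 0, between 0.25 and 0.50 without any other single library, and 0.32 with the term for Xist. Without Tet1-null library 1, double-heterozygous library 0 and Tdg-heterozygous library 2 together it was 0.0341. Of 14 endothelial markers, 13 were higher and 1 lower (0.23). Their median was 0.0165 without Tet1-null library 1, 0.0605 without double-heterozygous library 0, 0.12 without control library 0, 0.11 with the term for Xist and -0.13 without the same 3 libraries together. All 11 smooth muscle markers were higher (0.28), but without Tet1-null library 1 their median was -0.25, and with the term for Xist it was -0.07. Synpo2, an actin-binding protein of muscle, had 7.84 FPKM in that library and 1.44 to 2.12 FPKM in the 5 other mutant libraries, against 0.477 to 2.56 FPKM in wild-type libraries. The 6 tested red cell genes were all lower (-0.57). In Tdg wild-type adenomas 6 were lower (-1.19), and in TdgN151A/+ adenomas 3 were higher and 3 lower (0.0326). Leaving out single libraries gave medians from -0.88 without double-heterozygous library 0 to -0.19 without Tet1-null library 2, -0.21 without control library 2, -0.30 without Tdg-heterozygous library 2 and -0.31 without double-heterozygous library 2. Among them was the beta-globin gene Hbb-bt, at 3.15 to 81.8 FPKM in mutant and 14.8 to 112 FPKM in wild-type libraries.

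Replication genes leaned the other way in both backgrounds. Of 22 tested, 1 was higher and 21 lower in the mutant adenomas, with a median of -0.23 over both backgrounds, -0.30 in Tdg wild-type and -0.17 in TdgN151A/+ adenomas, and 18 were lower in both. In TdgN151A/+ adenomas the replication scores were -0.51, 0.27 and -0.1 in double-heterozygous and 0.08, 0.07 and -0.03 in Tdg-heterozygous libraries. These groups overlapped, with the lowest score in double-heterozygous library 0 and the highest in double-heterozygous library 1. Medians within a background were not taken with libraries left out. None was called, and the median was -0.15 without control library 1 and without double-heterozygous library 0, down to -0.33 without double-heterozygous library 1, -0.19 with the term for Xist and -0.13 without Tet1-null library 1, double-heterozygous library 0 and Tdg-heterozygous library 2 together. Cdc6, which loads the replicative helicase, had 5.28, 4.98 and 5.89 FPKM in Tet1-null and 3.32, 8.39 and 4.79 FPKM in double-heterozygous libraries, against 7.68, 7.51 and 8.31 FPKM in Tdg-heterozygous and 6.77, 10.2 and 6.37 FPKM in control libraries (-0.48 ± 0.19; limma, unadjusted p = 0.0303, adjusted p = 1). Double-heterozygous library 1 was above 5 of the 6 wild-type libraries, and the other mutant libraries were below all 6. The helicase activator Cdc45 (-0.40 ± 0.19) and the clamp loader subunit Rfc4 (-0.33 ± 0.16) came next. Of 22 mitosis genes, 3 were higher and 19 lower (-0.13), with a median of -0.02 without double-heterozygous library 0, -0.03 without control library 1 and 0.0016 with the term for Xist. Cdc6 was the single gene with an unadjusted p under 0.05 among the 580 tested members of all 38 lists, of which 0 were called. Over all genes tested the share at an unadjusted p under 0.05 was 1.55% (235 of 15150, limma), which is larger than among the list members. The p53 targets (12 higher, 5 lower), hypoxia and glycolysis genes (12 and 8) and immediate-early genes (6 and 12) had medians of 0.0372, 0.0427 and -0.0404, which turned sign when single libraries were left out. The immediate-early median was 0.21 with the term for Xist.

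The Tet1 difference was also taken separately in each Tdg background. Tet1-null adenomas carry both mutant copies and double-heterozygous adenomas a single one. A difference between the backgrounds therefore cannot be assigned to Tdg or to the number of mutant Tet1 copies. Between Tet1-null and control adenomas 2 models were called (0.0132% of genes tested), Gm25390 and Gm22692. Between double-heterozygous and Tdg-heterozygous adenomas 0 were called, with 231 genes at an unadjusted p under 0.05. Groups did not overlap in 855 genes in the Tdg wild-type adenomas (5.64%), 521 higher and 334 lower with a Tet1 mutation, and in 848 genes in the TdgN151A/+ adenomas (5.6%), 712 higher and 136 lower. In 34 genes (0.224%) this held in both backgrounds and in the same direction, 33 higher and 1 lower, and in 12 it held in opposite directions. Whether these shares differ from those of random splits was not tested. Across all genes the differences in the backgrounds had the same sign in 49.1% of genes, with Pearson's r of -0.117 and Spearman's rho of -0.0892 across genes, which are not independent of each other. These values depended on single libraries: without Tdg-heterozygous library 2 the share was 64.8% (r = 0.124), and without double-heterozygous library 0 it was 40.6% (r = -0.232).

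**Figure D4:**
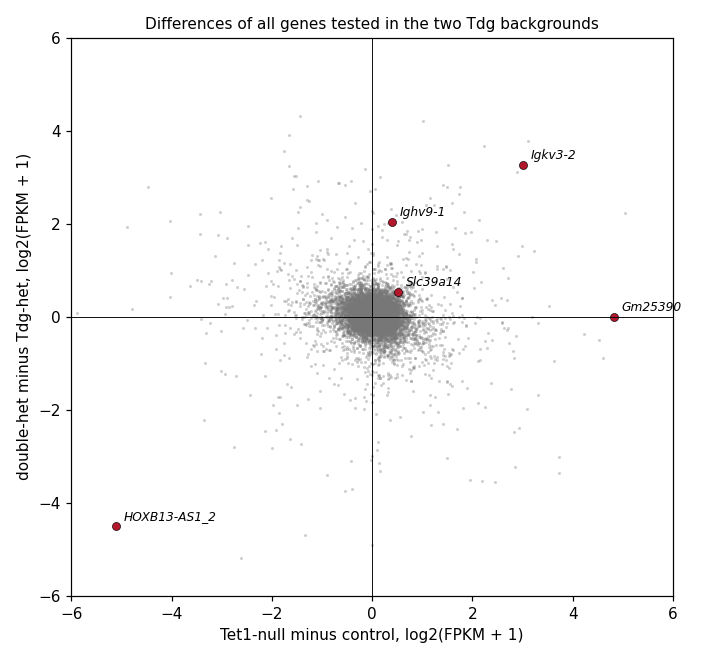
Log2 differences of the 15150 genes tested, Tet1-null minus control on the horizontal axis and double-heterozygous minus Tdg-heterozygous on the vertical axis, both on log2(FPKM + 1). Each point is a gene, and red points are genes named in the text. The cloud has no clear slope (r = -0.117), Igkv3-2 lies at 3.00 and 3.26, and Gm25390 lies at 4.82 and 0.

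Many gene lists had different directions in the backgrounds. Of the 38 lists, which count sex-linked genes as 1, 25 had medians of opposite sign in the backgrounds, 7 were higher and 6 lower in both. Type I interferon genes had a median of 0.97 between Tet1-null and control adenomas and -0.37 between double-heterozygous and Tdg-heterozygous adenomas. For the growth targets of Wnt these medians were -0.69 and 0.28, for Paneth cell genes -1.88 and 0.43, for neutrophil markers 0.58 and -0.88, and for keratins 0.40 and -0.36. The difference between the backgrounds was called in 0 list members (limma). Over all genes the medians were 0.029 and 0.0527.

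**Figure D5:**
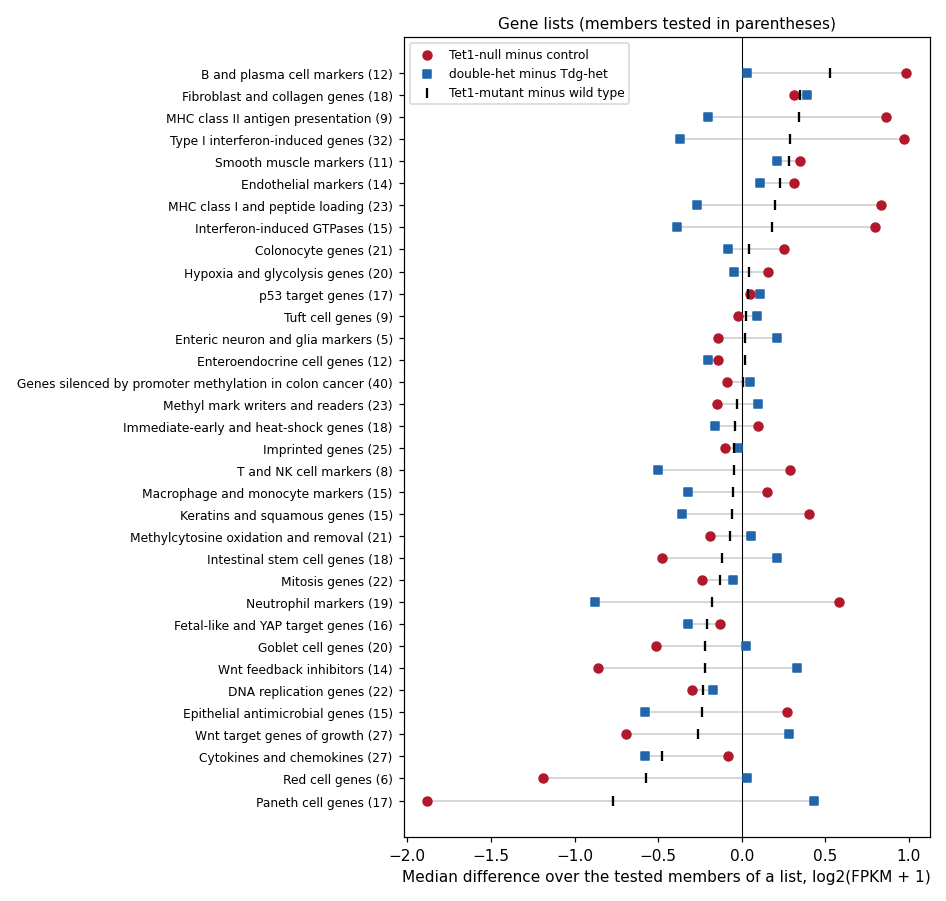
Median log2 difference over the tested members of each gene list with at least 5 of them (number in parentheses; sex-linked genes left out), for Tet1-null minus control (red circles), double-heterozygous minus Tdg-heterozygous (blue squares) and all Tet1-mutant minus all wild-type libraries (black ticks). Grey lines join the 2 backgrounds. Fibroblast genes are at 0.31 and 0.39 and replication genes at -0.30 and -0.17, while type I interferon genes are at 0.97 and -0.37.

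Genes near Tet1 were looked at because a mutant allele is inherited with its neighbours. Within 5 Mb of the start of Tet1, 52 genes were tested, 0 were called and 2 had an unadjusted p under 0.05 (3.85%, beside 1.55% of all genes tested): 2010107G23Rik and the translation inhibitor gene Eif4ebp2. Groups did not overlap between Tet1-null and control adenomas in 7 of these 52 genes (13.5%, beside 5.64% of all genes tested). On the whole of chromosome 10, this was so for 49 of 672 genes (7.29%). Neither share was tested against all genes or against random splits. The Tet1-mutant and wild-type sides were wholly apart in 0 genes of chromosome 10.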

How the data were processed

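Total RNA of 12 adenoma samples, sequenced as single 75 nt reads, was used as 1 table of FPKM, computed by the authors with TopHat2 (per the labels), Cufflinks and Cuffdiff on mm10, per the submitters' processing notes. Versions, annotation and library scaling are not given in the sources used here. Columns were tied to groups by their letters. Of the 25705 gene IDs, 25119 are in GENCODE M21. Genes with at least 1 FPKM in at least 3 libraries were fitted as log2(FPKM + 1) with limma 3.58.1 (R 4.3.3, variance trend, 4 group means). The Tet1 contrast is the mean of both mutant groups minus that of both wild-type groups, and the background contrasts come from the same fit. P-values were adjusted by Benjamini-Hochberg over all genes tested and called under 0.05. FPKM give no read depth, so no counting intervals are given, and a difference on this scale understates changes of low genes. Tet1 was tested by exact permutation (Python 3.11.15), and transcripts were matched by blastn 2.17.0. Spearman's rho for the CG number of promoters was computed with scipy 1.17.1. Simulated data had independent noise and no library standing apart over many genes. In them, 58% of genes altered 2-fold on the FPKM + 1 scale were called, with 12 false calls.

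Genes named are the called models, the 20 properly named genes with the smallest p, up to 10 named genes without overlap, genes of DNA methylation, and the 3 leading members of each list. Names with more than 1 gene ID were left out. Epcam, Hoxb13, Apoa1, Dnajc16, Gm22692 and the genes near Tet1 were added after their values were seen. The comparison, its members and the gene lists were chosen with earlier results of these data known. Other settings were pseudocounts of 0.1 and 5, other filters and scalings, library weights, robust variance, a term for Xist, other models, and leaving out libraries.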

Additional observations from a re-analysis of the deposited data

Results flagged for a closer look

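In each list score, the most extreme library of a side was set against the other 5 by Dixon's test at 95%. Of 76 sides, 16 had a library farther out than that, where chance gives about 1 in 20. On the wild-type side it was always Tdg-heterozygous library 2. Its gap was 0.655 of the side's range for methylcytosine oxidation genes, 0.661 for germline genes, 0.755 for genes methylated in colon cancer, 0.848 for Wnt feedback inhibitors, 0.928 for Wnt growth targets and 0.726 for stem cell genes. It was 0.72 for keratins, 0.65 for fetal-like and YAP targets, 0.632 for antimicrobial genes, 0.846 for enteric neuron and glia markers, 0.63 for immediate-early genes and 0.691 for hypoxia genes. On the mutant side, Tet1-null library 1 stood apart for genes methylated in colon cancer (0.682), Wnt growth targets (0.73) and smooth muscle markers (0.745), and double-heterozygous library 0 for mitosis genes (0.806). The lists share these libraries, so these counts are not independent.

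Mean Paneth cell scores differed in opposite directions in the 2 backgrounds. The 3 Tet1-null scores were below the mean of the controls and the 3 double-heterozygous scores above the mean of the Tdg-heterozygous libraries. The latter mean was lowered by Tdg-heterozygous library 2. Scores were 0.64, 0.09 and -0.97 in Tdg-heterozygous and 0.56, 0.41 and 0.23 in double-heterozygous libraries, so these groups overlapped. The difference of the differences was -2.29 on the log2 scale and was not tested as a score. For Gm25390 the difference between the backgrounds passed (4.82, limma, adjusted p = 0.00237). It met the filter through the 3 Tet1-null libraries alone, so a difference was set by the filter. It was not called with a pseudocount of 5 or with the filter on a mean of at least 5 FPKM.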

How the results depend on the processing

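Between Tet1-mutant and wild-type adenomas 1 gene was called. The count was 2 with a pseudocount of 0.1, no filter, library weights or without Tet1-null libraries 1 and 2, and 4 without the 3 libraries low in Wnt targets (Tet1-null 1, double-heterozygous 0 and Tdg-heterozygous 2). It was 0 with a pseudocount of 5, a mean of at least 5 FPKM, protein-coding genes only, 2 groups, an additive Tdg term or a trend over mutant Tet1 alleles, and 1 to 2 when single libraries were left out. Between Tet1-null and control adenomas, where 2 were called, it was 1 with a pseudocount of 5 or a term for Xist, 4 with no filter, 0 with the stricter filter or protein-coding genes, 236 with library weights (in which Tet1-null library 2 had a weight of 5.25), 8 without the 3 libraries, and 1 to 4 with single libraries left out. Between double-heterozygous and Tdg-heterozygous adenomas, where 0 were called, it was 3 without the 3 libraries or without the 2 Tet1-null libraries, and 0 to 2 with single libraries left out. For the difference between backgrounds, where 1 was called, it was 2 with a pseudocount of 0.1, no filter or without the 2 Tet1-null libraries, 0 with a pseudocount of 5, the stricter filter, protein-coding genes or without the 3 libraries, and 1 to 2 with single libraries left out. The causes were not tested.

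Genes without overlap, 14 in all, numbered 5, 7 and 6 after same-total, median-ratio and quantile scaling, 137 without the 3 libraries, 123 without the 2 Tet1-null libraries and 22 to 55 with single libraries left out, since smaller sides overlap less often; these settings were chosen after seeing the data. The sign turned for Dnmt1 (0.00713 without the 3 libraries, 0.0182 without the 2, and -0.16 to 0.00672 with single libraries left out, above 0 without control library 1). It also turned for Dnmt3a (-0.0375 without Tet1-null library 0 to 0.21 without Tet1-null library 1) and Mbd4 (-0.00389 without Tdg-heterozygous library 2 to 0.20 without double-heterozygous library 0). Dnmt3b was at -0.0109 with quantile scaling, -0.0101 with the Xist term and -0.0224 with the allele trend, and between -0.12 and 0.19 with single libraries left out, below 0 without Tet1-null library 0 and without Tdg-heterozygous library 2 (-0.0863). Gm25390 did not pass with a pseudocount of 5 (1.35), with the allele trend (1.93, adjusted p = 0.69, limma), with the additive Tdg term, in the 2-group fit or with the filter on a mean of 5 FPKM. The Tet1 difference stayed between -0.134 and -0.0346 FPKM. No paired analysis was possible because columns are numbered 0 to 2 and labels 1 to 3, so a column is tied to a group but not to a numbered replicate.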
